A study of Mus musculus with 6 samples.

Results

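The genes of interest were 10 genes that set how close an epithelial cell stands to death through its mitochondria: Bcl2, Bcl2l1, Mcl1, Bak1, Bad, Bid, Bik, Bcl2l11, Bmf and Xiap. They were taken by symbol, as Bcl2 family members that are not classic p53 targets together with an inhibitor of apoptosis, and each had a single entry among the 36172 genes of the deposited expression table. Tumor-derived organoids, which are three-dimensional cultures of tumor epithelial cells, had been prepared from intestinal tumors of C57BL/6 mice aged 15 to 20 weeks, and their poly(A) RNA was sequenced. All organoids carried the Apc Δ716 truncation with loss of the wild-type Apc allele. Organoids of 3 Trp53 genotypes were compared, each as 2 libraries from organoids prepared independently from 2 mice, which gave 6 libraries. Apc Δ716 Trp53 +/+ organoids had intact p53. In Apc Δ716 Trp53 flox/flox organoids the LSL•R270H allele was left unrecombined and acts as a null allele. In Apc Δ716 Trp53 R270H/R270H organoids the same allele had been recombined by villin-CreER, a Cre active in intestinal epithelium, in mice given tamoxifen, and both copies of Trp53 give rise to missense p53 R270H protein. Tamoxifen was described for the R270H/R270H mice alone, so that a lasting effect of the drug and the effect of the missense protein cannot be told apart. The genotypes are called wild-type, flox/flox and R270H/R270H below, and all carry the Apc Δ716 mutation. The question addressed was how the survival and death genes differ between tumor cells with intact p53, no p53 and missense p53.

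BCL2 family proteins meet on the outer mitochondrial membrane. BCL2, BCL-XL (the product of Bcl2l1) and MCL1 hold the effectors BAX and BAK1 in check, and the BH3-only proteins BAD, BID, BIK, BIM (Bcl2l11) and BMF release that hold or activate the effectors directly. Open effector pores let cytochrome c out, which starts the caspase cascade, and XIAP blocks caspases further downstream. Wild-type p53 drives intestinal cells towards death mainly by inducing other members of the family, among them Bax and Bbc3.

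Values were rpkm, read density per kilobase of gene scaled to the mapped reads of the library, as the authors calculated them. The lowest value in the table is 1 rpkm, which appears to be a floor set on the values. A gene was tested if any library reached 4 rpkm, which kept 10042 genes and 9 of the 10 members. Bik did not reach 4 rpkm anywhere and is given by its values. Differences were tested with limma on log2(rpkm+1), with the 3 genotypes sharing an estimate of the spread, and a gene was called at a Benjamini-Hochberg adjusted p under 0.05 over all genes tested. Values written as -fold are ratios of mean rpkm without the added 1. The s.e. and p values belong to the log2 fold changes on log2(rpkm+1), so the ratios need not match these, above all at low rpkm. With 2 libraries per genotype, an exact permutation test of a single gene cannot go below p = 0.333.

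The Trp53 transcript was checked against the labels and was at 75.9 and 74.3 rpkm in wild-type, 1.73 and 2.48 rpkm in flox/flox and 72.8 and 82.7 rpkm in R270H/R270H. Cdkn1a, a p53 target that encodes a cell cycle inhibitor, was at 110 and 122 rpkm in wild-type, 11.8 and 27.0 rpkm in flox/flox and 31.9 and 29.5 rpkm in R270H/R270H, and Mdm2, another target, was likewise highest in wild-type. All 6 epithelial markers were present, with summed levels from 2181 to 4164 rpkm, highest in flox/flox. Krt8, Krt18 and Krt19 were highest in both flox/flox libraries, but Epcam, Cdh1 and Vil1 overlapped between flox/flox and wild-type. Of the markers of other tissues, 3 of 7 fibroblast, 5 of 6 immune and 2 of 3 endothelial markers stood at the floor in every library. Of the exceptions, the endothelial marker Cdh5 was at 8.88 to 9.35 rpkm in wild-type and 1.00 to 3.30 rpkm in the mutant genotypes. The macrophage marker Cd68 was at 9.87 to 10.2 rpkm in wild-type and 2.22 to 2.41 rpkm in R270H/R270H, and split the flox/flox libraries, with 2.06 rpkm in replicate 1 and 11.1 rpkm in replicate 2. Replicate 2 of flox/flox was also the only library with fibroblast markers above the floor, the highest being Col1a1 at 2.44 rpkm. The sum of 3 Paneth cell markers was 1122 to 1442 rpkm in wild-type, 528 to 550 rpkm in flox/flox and 331 to 364 rpkm in R270H/R270H. All 3 were highest in wild-type, but between the mutant genotypes they differed in direction. Mmp7 was at 351 and 397 rpkm in flox/flox and 138 and 143 rpkm in R270H/R270H. Defa24 was at 41.9 and 53.5 rpkm in flox/flox and 68.7 and 91.5 rpkm in R270H/R270H, and Lyz1 overlapped. Of the goblet markers, Muc2 had 2 entries and was left out. The sum of Tff3 and Clca1, mostly Tff3, ran at 103 to 129, 35.3 to 111 and 47.8 to 55.6 rpkm in wild-type, flox/flox and R270H/R270H. Enteroendocrine markers ran at 8.41 to 12.1, 2.00 to 3.15 and 2.00 rpkm, and enterocyte markers at 9.67 to 16.5, 3.0 to 3.20 and 9.74 to 18.7 rpkm. Summed stem cell markers were at 28.9 to 39.4, 49.1 to 54.2 and 26.3 to 36.2 rpkm, but the genes in that sum differed in direction. Olfm4 was at 1.00 rpkm in both wild-type libraries, 1.11 and 3.04 rpkm in flox/flox and 7.98 and 13.1 rpkm in R270H/R270H. Ascl2 was at 21.1 and 17.1, 38.8 and 28.4, and 8.16 and 10.8 rpkm in the same order. Lgr5 ran from 10.1 to 17.6 rpkm over all libraries. The part of these markers in the results below was not tested. In bulk RNA, fewer cells of a type and less RNA per cell cannot be told apart. The libraries of flox/flox differed from each other more than those of the other genotypes, with a median s.d. of log2 values of 0.247 against 0.0463 in wild-type and 0.0621 in R270H/R270H.

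By the GENCODE annotation of GRCm38, the genes on the plus strand are Mcl1 at chr3:95658788-95663176, Bad at chr19:6941861-6951899, Bik at chr15:83526862-83544634, Bcl2l11 at chr2:128126038-128162547 and Xiap at chrX:42059679-42109656. Those on the minus strand are Bcl2 at chr1:106538178-106714274, Bcl2l1 at chr2:152780668-152831728, Bak1 at chr17:27019810-27029009, Bid at chr6:120891930-120916853 and Bmf at chr2:118528757-118549687. The table gives 1 value per gene, so that splice forms such as those of Bcl2l1 and Bcl2l11 are not told apart.

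Promoter sequences are shown for 3 members whose levels differed between genotypes, as the 250 bases before a RefSeq transcription start on GRCm38.p6, 5′ to 3′ on the coding strand. Capitals mark matches, on either strand, to the motifs searched: the GC box GGGCGG, the FoxO motif GTAAACA, the cAMP response element TGACGTCA, the E-box CACGTG, the TCF/LEF motif CTTTGAT and the p53 half-site. The windows are the Bmf window at chr2:118544588-118544837 on the minus strand, which lies inside the gene in front of an internal start, the Bcl2l11 window at chr2:128125788-128126037 on the plus strand and the Bcl2 window at chr1:106714291-106714540 on the minus strand.
Bmf: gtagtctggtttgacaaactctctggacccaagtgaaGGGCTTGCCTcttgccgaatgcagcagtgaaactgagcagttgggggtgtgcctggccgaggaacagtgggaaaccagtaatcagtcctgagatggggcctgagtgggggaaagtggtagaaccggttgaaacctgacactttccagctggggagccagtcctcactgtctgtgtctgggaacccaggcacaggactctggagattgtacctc
Bcl2l11: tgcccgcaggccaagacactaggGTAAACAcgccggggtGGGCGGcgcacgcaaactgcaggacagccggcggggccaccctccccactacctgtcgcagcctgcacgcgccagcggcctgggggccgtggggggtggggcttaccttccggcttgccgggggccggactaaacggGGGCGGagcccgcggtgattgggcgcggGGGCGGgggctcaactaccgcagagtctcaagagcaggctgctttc
Bcl2: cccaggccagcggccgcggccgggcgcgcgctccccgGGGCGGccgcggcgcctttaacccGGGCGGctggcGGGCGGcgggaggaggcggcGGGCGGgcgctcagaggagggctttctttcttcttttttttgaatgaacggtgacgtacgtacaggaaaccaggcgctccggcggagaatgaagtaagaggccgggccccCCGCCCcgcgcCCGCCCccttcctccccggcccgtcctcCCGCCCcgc

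RefSeq held 17 such windows for 9 members, all but Bik. The GC box, a site for SP1-type factors found in many housekeeping promoters, was in 8 of the 17 windows and in 32.7% of all 32851 promoters. In the Bcl2l11 window above, a FoxO motif lies at -227 to -221 from the start with 3 GC boxes downstream of it, and 3.17% of all promoters hold a FoxO motif. The p53 half-site, a single decamer of the paired site that p53 binds, was in the Bmf window at -213 to -204 and in no other member window, against 7.13% of all promoters. The Bcl2 window holds 7 GC boxes and is 74.8% G and C, against a median of 52.4% over all promoters. None of the 17 windows held the cAMP response element (1.55% of all promoters), the E-box (6.02%) or the TCF/LEF motif (3.21%). These matches describe letters in the windows and do not show binding.

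Mcl1, which encodes a short-lived survival protein, had the highest rpkm of the 10 genes in wild-type organoids, followed by Bak1 and then by Xiap and Bcl2l1, whose ranges overlapped. Bid, Bcl2l11, Bad, Bcl2, Bmf and Bik followed in that order, each with ranges apart from the next. In flox/flox organoids Bak1 (59.0 and 55.9 rpkm) stood above Mcl1 (55.5 and 47.3 rpkm), and the ratio of Bak1 to Mcl1 was 1.06 and 1.18, against 0.727 and 0.671 in wild-type and 0.592 and 0.659 in R270H/R270H. In R270H/R270H organoids the order was that of wild-type, except that Bmf stood above Bad and Bcl2, and no neighbours overlapped. In flox/flox organoids Bcl2l1, Bid, Xiap and Bad overlapped in turn below Mcl1, as did Bcl2, Bmf and Bik at the bottom. Summed over the 3 anti-apoptotic genes, levels were 73.2 and 77.0 rpkm in wild-type, 78.0 and 72.9 rpkm in flox/flox and 90.7 and 88.0 rpkm in R270H/R270H, where Mcl1 made up most of the sum. The 5 BH3-only genes summed to between 41.4 and 48.2 rpkm in all libraries, with overlapping ranges between flox/flox and each other genotype.

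**Figure D1:**
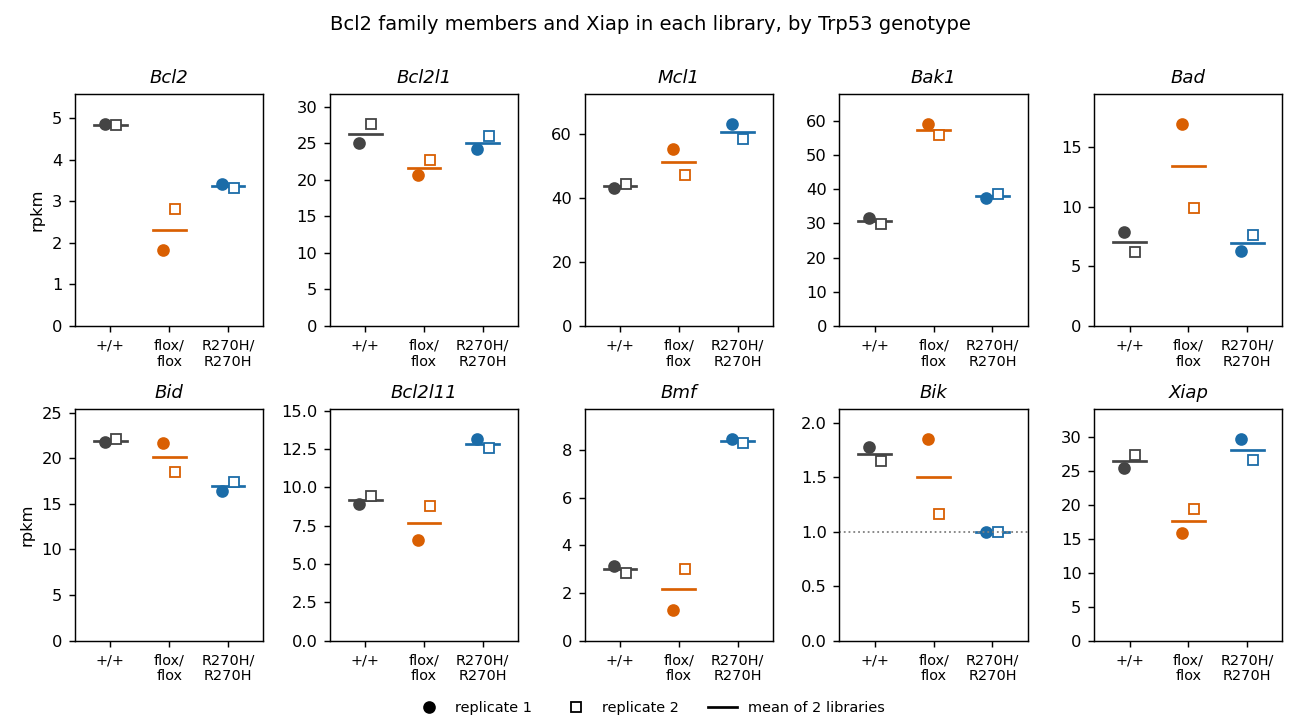
Levels of the 10 genes in rpkm (vertical axes from 0, a scale for each gene) in each library of the 3 Trp53 genotypes; filled circles are replicate 1, open squares replicate 2 and lines the mean of the 2 libraries, and the dotted line for Bik is the floor of 1 rpkm. Bak1 was highest in flox/flox (55.9 to 59.0 rpkm), and Bmf was highest in R270H/R270H (8.29 to 8.46 rpkm).

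Among the anti-apoptotic genes, Bcl2 was highest with intact p53. Its level was 4.85 and 4.84 rpkm in wild-type, 1.83 and 2.81 rpkm in flox/flox and 3.42 and 3.33 rpkm in R270H/R270H. No library of either mutant genotype reached the wild-type level, and the R270H/R270H libraries lay between the other two genotypes. Bcl2 fell 2.09-fold in flox/flox against wild-type (log2 fold change -0.83, s.e. 0.18, adjusted p = 0.0469), a call that was kept in 6 of 12 other settings, with adjusted p from 0.0319 to 0.145, and in 2 of 6 fits without a library (0.000547 to 0.310). The difference between R270H/R270H and wild-type was -0.42 on the log2 scale (95% confidence interval -0.87 to 0.04, adjusted p = 0.183). An antisense transcript, D630008O14Rik, shares 6.09% of the exon bases of Bcl2 and was listed at 1.00 to 1.09 rpkm.

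Mcl1 was at 43.3 and 44.5 rpkm in wild-type, 55.5 and 47.3 rpkm in flox/flox and 63.1 and 58.6 rpkm in R270H/R270H. Both R270H/R270H libraries lay above all others, and the 3 genotypes did not overlap. The difference between R270H/R270H and wild-type was 0.46 on the log2 scale (s.e. 0.12, 1.39-fold), which did not pass the threshold with the shared spread (adjusted p = 0.0627). Bcl2l1 varied least in this group, from 20.6 to 27.6 rpkm over all libraries, with 25.0 and 27.6 rpkm in wild-type, 20.6 and 22.7 rpkm in flox/flox and 24.2 and 26.0 rpkm in R270H/R270H. Its difference between flox/flox and wild-type was -0.27 (95% confidence interval -0.55 to 0.01, adjusted p = 0.156), and no comparison called it.

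Bak1, which encodes the pore-forming effector of the 10, showed the smallest adjusted p of any member. It measured 31.5 and 29.9 rpkm in wild-type, 59.0 and 55.9 rpkm in flox/flox and 37.3 and 38.6 rpkm in R270H/R270H. The flox/flox libraries stood far above the rest, and the R270H/R270H libraries lay slightly above wild-type without overlap. Bak1 rose 1.87-fold in flox/flox against wild-type (log2 fold change 0.88, s.e. 0.09, adjusted p = 0.0127, and 0.000554 to 0.196 with each library left out in turn) and was 1.51-fold lower in R270H/R270H than in flox/flox (log2 fold change -0.58, s.e. 0.09, adjusted p = 0.0168). Against wild-type, the R270H/R270H level differed by 0.30 (s.e. 0.09, adjusted p = 0.10). The exons of Ggnbp1, a gene on the opposite strand, cover 25.5% of the Bak1 exon bases, and Ggnbp1 was listed at 2.26 to 3.51 rpkm with its lowest values in flox/flox. The libraries were stranded, but whether the counting used the strand is not given in the sources used here.

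The 5 genes whose log2 levels followed Bak1 most closely over the 6 libraries were Slain1 (Pearson r = 0.998), Gm14150 (0.998), Tacc3 (0.997), Pdk3 (0.996) and Tuba1c (0.995). Slain1 and Tacc3 encode microtubule-associated proteins, Tuba1c a tubulin and Pdk3 a pyruvate dehydrogenase kinase. Tuba1c ran at 136 and 132 rpkm in wild-type, 276 and 284 rpkm in flox/flox and 175 and 173 rpkm in R270H/R270H. For scale, 492 of the 10041 other genes tested (4.9%) had r above 0.9 with Bak1 over these 6 libraries.

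Among the BH3-only genes, Bmf, whose product is bound to the cytoskeleton through dynein light chain until it is released, was highest with missense p53. It was at 3.14 and 2.85 rpkm in wild-type, 1.29 and 3.01 rpkm in flox/flox and 8.46 and 8.29 rpkm in R270H/R270H. Both R270H/R270H libraries lay far above the other 4, and in flox/flox replicate 1 lay below the wild-type range and replicate 2 within it. Bmf was 3.90-fold higher in R270H/R270H than in flox/flox (log2 fold change 1.63, s.e. 0.28, adjusted p = 0.0188, and 0.000238 to 0.164 with each library left out). The log2 fold change was 1.23 without flox/flox replicate 1 and 2.03 without replicate 2. Against wild-type it was 2.79-fold higher (log2 fold change 1.23, s.e. 0.28), with an adjusted p of 0.0501 that fell on either side of the threshold, from 5.34e-05 to 0.0825, under the other settings that kept all R270H/R270H and wild-type libraries. Bmf in flox/flox against wild-type rested on replicate 1 of flox/flox, since the log2 fold change was -0.40 with it (adjusted p = 0.341) and 0.01 without it.

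Bcl2l11, which encodes BIM, a direct activator of the effectors, was at 8.90 and 9.41 rpkm in wild-type, 6.56 and 8.77 rpkm in flox/flox and 13.1 and 12.6 rpkm in R270H/R270H. The R270H/R270H libraries were the highest and the flox/flox libraries the lowest, with no overlap among the 3 genotypes. It was 1.68-fold higher in R270H/R270H than in flox/flox (log2 fold change 0.69, s.e. 0.15, adjusted p = 0.0327), a call kept in 9 of 12 other settings (adjusted p up to 0.110) and in 2 of 6 fits without a library (up to 0.222). It was 1.40-fold higher than in wild-type, where the adjusted p was 0.118.

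Bad, whose protein is held in the cytosol by 14-3-3 proteins when survival kinases phosphorylate it, was at 7.82 and 6.21 rpkm in wild-type, 16.9 and 9.89 rpkm in flox/flox and 6.26 and 7.64 rpkm in R270H/R270H. Both flox/flox libraries were above all others but were far apart from each other. The log2 differences of 0.81 against wild-type (s.e. 0.27, adjusted p = 0.108) and of -0.82 between R270H/R270H and flox/flox (adjusted p = 0.0804) did not pass. Exons of Gpr137 on the opposite strand cover 20.5% of the Bad exon bases, and Gpr137 ran from 2.86 to 3.82 rpkm.

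Bid, which caspase-8 cleaves to link death receptors to mitochondria, was at 21.8 and 22.1 rpkm in wild-type, 21.7 and 18.5 rpkm in flox/flox and 16.5 and 17.4 rpkm in R270H/R270H. It was lowest in both R270H/R270H libraries, with a log2 difference from wild-type of -0.35 (95% confidence interval -0.64 to -0.07, adjusted p = 0.104). Bcl2l13 on the opposite strand shares 17.7% of the Bid exon bases and ran from 9.96 to 11.3 rpkm. Bik, whose BH3-only product sits mainly on the endoplasmic reticulum, was at 1.78 and 1.65 rpkm in wild-type, 1.85 and 1.16 rpkm in flox/flox and at the floor of 1.00 rpkm in both R270H/R270H libraries, so that its true level there is unknown. With every gene above the floor tested, Bik differed by -0.44 on the log2 scale between R270H/R270H and wild-type (adjusted p = 0.0987), a value the floor makes smaller.

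Xiap, which encodes a direct inhibitor of caspases, was lowest without p53. It was at 25.5 and 27.5 rpkm in wild-type, 15.9 and 19.4 rpkm in flox/flox and 29.7 and 26.7 rpkm in R270H/R270H. The flox/flox libraries lay below the other 4, which overlapped. Xiap was 1.60-fold higher in R270H/R270H than in flox/flox (log2 fold change 0.65, s.e. 0.13, adjusted p = 0.0278). That call was kept in 8 of 12 other settings and in 2 of 6 fits without a library, and was lost, at 0.33 (adjusted p = 0.0565), once the gene length trend described below was removed, as well as with a replicate block (adjusted p = 0.0603), with weights per genotype (adjusted p = 0.132) and in a fit of the mutant genotypes alone (adjusted p = 0.0981). The difference between flox/flox and wild-type was -0.56 (s.e. 0.13, adjusted p = 0.0573). Between R270H/R270H and wild-type it was 0.09 (95% confidence interval -0.25 to 0.43).

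**Figure D2:**
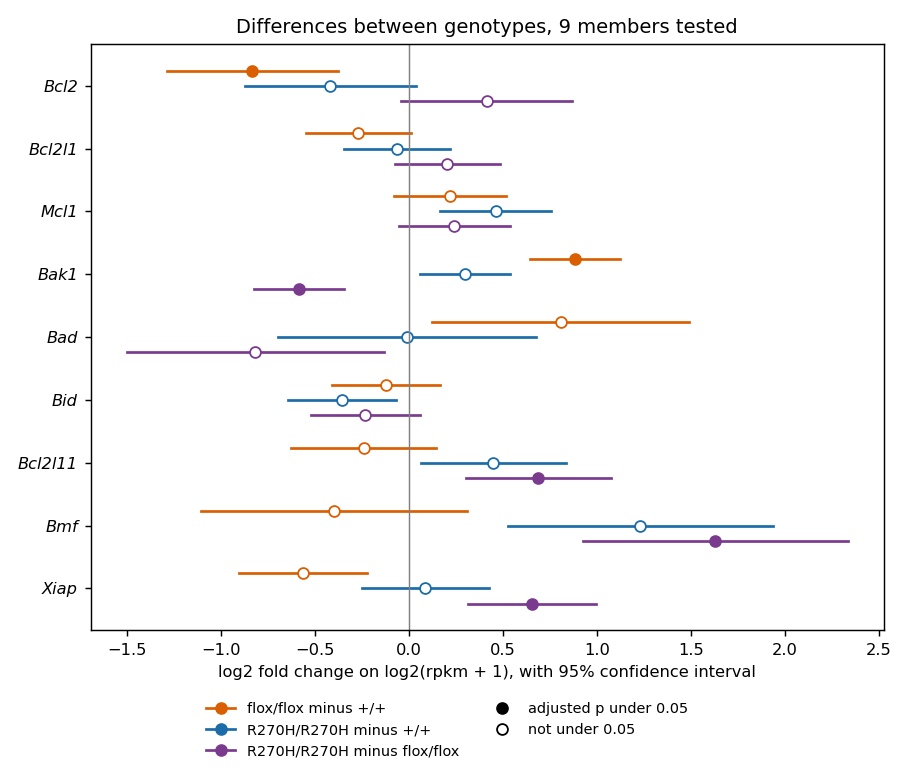
Log2 fold changes of the 9 members tested, on log2(rpkm+1), between each pair of genotypes; points are limma estimates, bars their 95% confidence intervals, and filled points passed an adjusted p of 0.05. Bak1 and Bcl2 were called between flox/flox and wild-type, and Bmf, Bcl2l11, Xiap and Bak1 between R270H/R270H and flox/flox.

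By comparison, 2 of 9 members were called between flox/flox and wild-type, where 11.3% of all genes tested were called, with Bak1 higher and Bcl2 lower. Between R270H/R270H and wild-type limma called 0 of 9, where 12.2% of all genes were called, and 5 members had an unadjusted p under 0.05, as did 32.0% of all genes. Between R270H/R270H and flox/flox it called 4 of 9, where 24.6% of all genes were called, with Bmf, Bcl2l11 and Xiap higher and Bak1 lower. The comparisons share libraries pairwise, so their calls are not independent. Leaving out any 1 of the 4 wild-type and R270H/R270H libraries left 0 members called in all 3 comparisons, with 1 to 5 members at an unadjusted p under 0.05, and 0 to 3.74% of all genes were called in these fits. The median log2 fold change of the 9 members was -0.24 in flox/flox against wild-type, 0.09 in R270H/R270H against wild-type and 0.24 between the mutant genotypes, beside -0.02, 0.03 and 0.03 over all genes tested.

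Libraries of the genotypes did not overlap for 8 of 9 members between flox/flox and wild-type, where the same held for 64.5% of all genes. The count was 6 of 9 between R270H/R270H and wild-type, against 81.8% of all genes, and 9 of 9 between the mutant genotypes, against 68.0%. The flox/flox libraries enter the spread of every comparison above. When only the 4 R270H/R270H and wild-type libraries were fitted, 6 of 9 members were called, where 57.0% of all genes were called: Bmf (adjusted p = 0.000459), Mcl1, Bcl2l11 and Bak1 were higher and Bcl2 and Bid lower in R270H/R270H. Fits of only the flox/flox and wild-type libraries, or of only the mutant genotypes, called 0 of 9 members in limma, with 3 and 5 members at an unadjusted p under 0.05, where 0.468% and 3.76% of all genes were called.

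The gap between the flox/flox libraries followed gene length. The median log2 difference of replicate 1 from replicate 2 was 0.33 in genes with up to 2782 exon bases and -0.36 in genes with at least 6784, with Spearman's rho = -0.46 across 9965 genes, which are not independent replicates. Of the members, Bcl2 (9157 bases), Xiap (9469 bases) and Bcl2l11 (8029 bases) were lower in flox/flox replicate 1 than in replicate 2, as were Bmf (5253 bases) and Bcl2l1 (4586 bases), and the shorter Bak1, Bad, Bik, Mcl1 and Bid were higher. The same trend ran through flox/flox against wild-type, at 0.22 in the short and -0.23 in the long genes. Between the mutant genotypes it was larger, at -0.32 in the short and 0.34 in the long genes. R270H/R270H against wild-type had a weaker trend, at -0.08 in the short and 0.13 in the long genes. With the length trend taken out of each library, Bak1 (log2 fold change 0.73, adjusted p = 0.0146) and Bcl2 (-0.62, adjusted p = 0.0319) were still called between flox/flox and wild-type. Between the mutant genotypes, Bmf was still called (1.54, adjusted p = 0.0146), as were Bcl2l11 at 0.43 in place of 0.69 (adjusted p = 0.0268) and Bak1 at -0.36 in place of -0.58 (adjusted p = 0.0449), and Xiap lost its call as given above. In R270H/R270H against wild-type, Bmf (1.19, adjusted p = 0.0353), Mcl1 (0.48, adjusted p = 0.0324) and Bcl2 (-0.52, adjusted p = 0.0482) passed the threshold once that trend was removed.

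**Figure D3:**
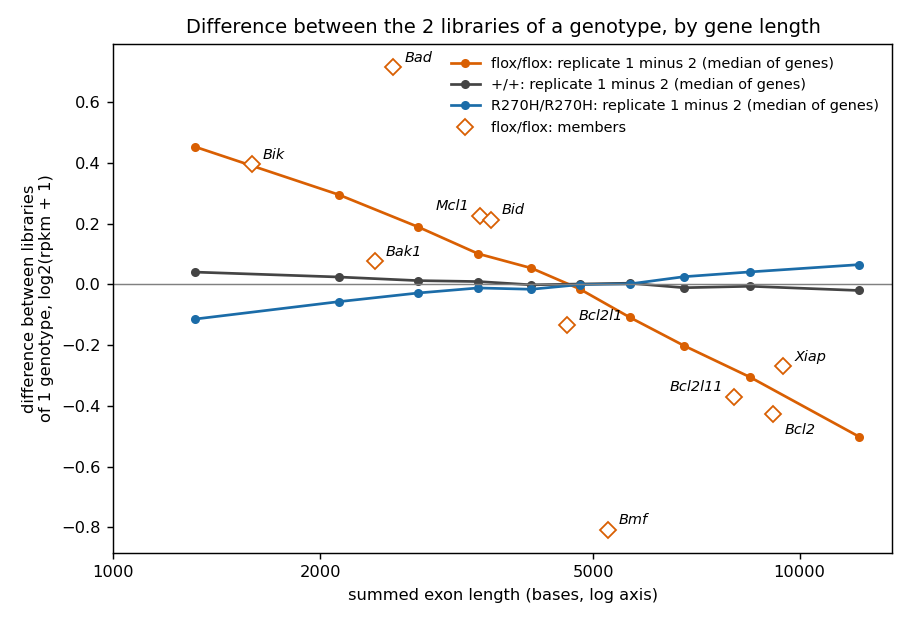
Difference between replicate 1 and replicate 2 of each genotype on log2(rpkm+1) (vertical axis) against summed exon length in bases (log axis); filled points joined by lines are medians of 10 groups of genes of rising length, and open diamonds are the 10 members in flox/flox. The flox/flox medians run from 0.45 in the group of shortest genes to -0.50 in that of the longest, and those of the other genotypes stay between -0.11 and 0.07.

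Chromosomal position was also examined. The members lie on 8 chromosomes, and the median log2 fold change of all tested genes on a member's chromosome was between -0.09 and 0.16 in every comparison. Within 5 Mb of Xiap, the median of 13 tested genes was 0.34 between the mutant genotypes, beside 0.65 for Xiap itself. Within 5 Mb of Bcl2 the median of 10 genes was -0.25 between flox/flox and wild-type, beside -0.83 for Bcl2. Between the mutant genotypes that window had a median of 0.42, beside 0.41 for Bcl2. The 165 genes near Bad had medians of 0.17 between flox/flox and wild-type and -0.26 between the mutant genotypes. Bad itself differed by 0.81 and -0.82 there. The windows of Bmf, Bcl2l11 and Bak1 had medians between -0.10 and 0.10 in all comparisons.

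Among p53 targets of the same family, Bbc3 fell in both mutant genotypes and Bax in R270H/R270H. Bax, the other pore-forming effector, was at 73.9 and 78.7 rpkm in wild-type, 61.7 and 36.4 rpkm in flox/flox and 28.6 and 33.8 rpkm in R270H/R270H, and fell in R270H/R270H against wild-type (log2 fold change -1.27, adjusted p = 0.0396). Bbc3, which encodes the BH3-only protein PUMA, fell from 4.72 and 4.59 rpkm in wild-type to 2.20 and 1.72 rpkm in flox/flox (adjusted p = 0.0282) and to the floor of 1.00 rpkm in both R270H/R270H libraries (adjusted p = 0.00733). Of the 3 p53-target genes, 1 was called lower in flox/flox and 2 in R270H/R270H against wild-type, and limma called 0 between the mutant genotypes, with 1 at an unadjusted p under 0.05. In these 3 comparisons, in that order, limma called 11.3%, 12.2% and 24.6% of all genes. An unadjusted limma p under 0.05 was found for 34.7%, 32.0% and 42.5% of all genes. These shares are the background for the counts of every list below. The other 8 tested family members gave 1 call higher in flox/flox against wild-type, the mitophagy receptor Bnip3l (log2 fold change 0.55, adjusted p = 0.0335), 0 calls in limma in R270H/R270H against wild-type, with 2 genes at an unadjusted p under 0.05, and 1 call lower between the mutant genotypes, the BAX-like gene Bok (log2 fold change -1.47, adjusted p = 0.0249). Bok has 1840 exon bases, and genes with up to 2782 had a median of -0.32 in that comparison. Its flox/flox libraries stood apart, at 52.8 and 29.4 rpkm, and the part of the length trend in this call was not tested.

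Downstream of mitochondria, the inhibitor of apoptosis genes other than Xiap gave 3 calls among 8 tested (37.5%) in each comparison. The shares over all genes were 11.3%, 12.2% and 24.6%. Birc2, a ubiquitin ligase in TNF receptor signalling, had the pattern of Xiap, lower in flox/flox than in wild-type (log2 fold change -0.55, adjusted p = 0.0432) and higher in R270H/R270H than in flox/flox (0.46, adjusted p = 0.0426). Birc5, which encodes the mitotic protein survivin, rose in flox/flox (1.01, adjusted p = 0.0351). Naip1, Naip2 and Naip5, sensors of bacterial proteins, were lower in R270H/R270H than in wild-type (-1.25, -1.17 and -1.44), although these near-identical copies may share reads and their single values are uncertain. Naip1 was also called lower in flox/flox than in wild-type (-1.10, adjusted p = 0.0310). It stood at the floor of 1.00 rpkm in both R270H/R270H libraries, which makes its difference there smaller. Naip2 and Naip5 were also called lower in R270H/R270H than in flox/flox (-0.66 and -1.38). Htra2, a mitochondrial protease that antagonises XIAP, was the called gene of the 2 XIAP antagonists tested, lower in R270H/R270H than in wild-type (-0.50, adjusted p = 0.0407) and than in flox/flox (-0.84, adjusted p = 0.00907).

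The 12 apoptosome and caspase genes gave 1 call in each comparison with wild-type (8.33%) and 2 between the mutant genotypes (16.7%). Each share was below that over all genes. Endog, a mitochondrial nuclease, rose from 1.82 and 1.56 rpkm in wild-type to 7.44 and 6.25 rpkm in flox/flox and was at 1.06 and 1.00 rpkm in R270H/R270H. Endog has 1063 exon bases, and the part of the length trend in these differences was not tested. Casp6, which encodes an executioner caspase, was higher in R270H/R270H than in flox/flox (0.61, adjusted p = 0.0204).

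Genes whose products bind or turn over the member proteins gave 2 calls of 15 in flox/flox against wild-type (13.3%) and 4 between the mutant genotypes (26.7%). Both shares were near those over all genes. In R270H/R270H against wild-type limma called 0 of them, with 1 at an unadjusted p under 0.05. Ywhag and Ywhah, 14-3-3 genes, were higher in flox/flox than in wild-type (0.57 and 0.87) and lower in R270H/R270H than in flox/flox (-0.53 and -0.75). Vdac2, whose channel protein carries BAK1 to the mitochondrial membrane, was lower in R270H/R270H than in flox/flox (-0.63, adjusted p = 0.0311), as Bak1 was. Gsk3b, a kinase that marks MCL1 for degradation, was higher there (1.04, adjusted p = 0.0293). The gene has 9831 exon bases, and genes with at least 6784 had a median of 0.34 in that comparison. Its flox/flox libraries stood apart, at 9.13 and 14.7 rpkm, and the part of the length trend in this call was not tested.

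In the death receptor arm that leads to BID, Tnfrsf10b, a TRAIL receptor gene, was lower in both mutant genotypes than in wild-type (-1.15 and -1.39, adjusted p = 0.0396 and 0.0244), and Tnfrsf1a, a TNF receptor gene, was lower in R270H/R270H than in wild-type (-0.80) and than in flox/flox (-0.52). The adaptor gene Tradd was higher in flox/flox than in wild-type (0.87, adjusted p = 0.0314) and lower in R270H/R270H than in flox/flox (-1.26, adjusted p = 0.0088). Tradd has 1866 exon bases, and the part of the length trend in its calls was not tested. That list gave 2 calls among 6 (33.3%) in each comparison, against 11.3%, 12.2% and 24.6% of all genes. Of the 6 stress factors known to act on BH3-only genes, Atf4 (-0.74) and Ddit3 (-0.998) were lower and Atf3 (0.79) was higher in R270H/R270H than in wild-type. Atf3 was also higher in flox/flox (1.16), and Jun was lower in R270H/R270H than in flox/flox (-1.03), as were Atf4 (-0.64) and Ddit3 (-0.97).

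Over the 8 lists together, 60 of 69 genes were tested and 11 (18.3%), 12 (20.0%) and 16 (26.7%) were called in the 3 comparisons, against 11.3%, 12.2% and 24.6% of all genes. Without any 1 of the wild-type or R270H/R270H libraries, at most 1 of the 60 was called in each comparison, where 0 to 3.74% of all genes were called. Without a flox/flox library 30 to 44 were, where 40.4 to 72.3% of all genes were called. Calls were 7 higher and 4 lower in flox/flox against wild-type, 1 higher and 11 lower in R270H/R270H against wild-type, and 3 higher and 13 lower between the mutant genotypes. The 11 lower calls include Naip1, Naip2 and Naip5, which may share reads, and the p53 targets Bax and Bbc3. How calls over all genes split by direction was not counted. The median log2 fold change of the 60 genes was 0.06, -0.01 and -0.23 in that order of comparisons.

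**Figure D4:**
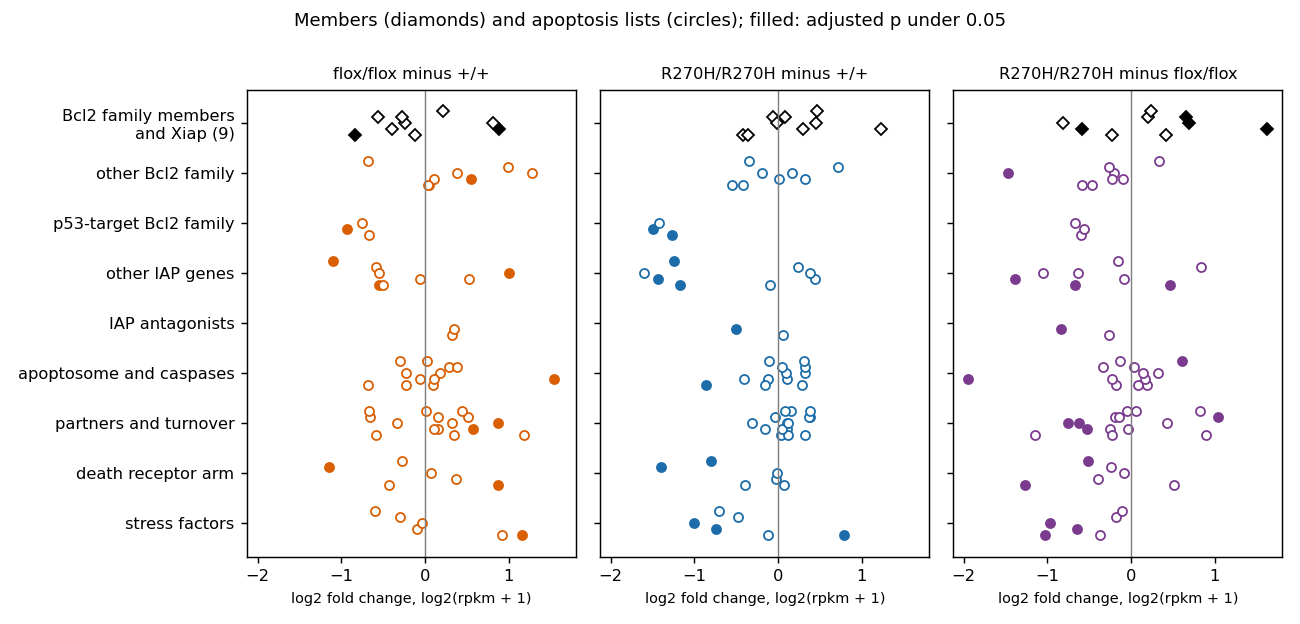
Log2 fold changes on log2(rpkm+1) of the 9 tested members (diamonds) and of 60 genes of 8 apoptosis lists (circles) in the 3 comparisons; filled symbols passed an adjusted p of 0.05. Called genes of the lists lie mostly to the left in R270H/R270H against wild-type (11 of 12). Among the 11 are Naip1, Naip2 and Naip5, which may share reads, and the p53 targets Bax and Bbc3. The split by direction over all genes was not counted.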

How the data were processed

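Per the labels and the study's methods, poly(A) RNA of organoids from 2 mice for each of 3 Trp53 genotypes was sequenced as stranded libraries. The authors mapped reads to mm10 and calculated the deposited rpkm values with StrandNGS, whose version, annotation and filters are not given in the sources used here. The values appear to be floored at 1 rpkm (23760 genes stood there in all libraries), so fold changes on log2(rpkm+1) understate those of low genes.

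The table holds no counts. Depth was estimated from the 1-read steps of genes under 230 bases, as 44.2 to 47.4 M mapped reads in 4 libraries, and could not be fixed in wild-type replicate 1 and Trp53 flox/flox replicate 1. At 44.2 M mapped reads, the lowest tested member value (Bmf at 1.29 rpkm) stands for about 300 reads, a counting error of 5.8%. That value is from Trp53 flox/flox replicate 1, whose own depth could not be fixed, so its read number is a rough guide.

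R 4.3.3 with limma 3.58.1 (lmFit, eBayes with trend, two-sided, all 6 libraries, no block) and Python 3.11.15 with pandas 2.3.3, numpy 2.4.6, scipy 1.17.1 and matplotlib 3.10.9 were used. The fit was tested on simulated data in which 200 of 10042 genes were changed in Trp53 R270H/R270H. Against wild-type, 37.0% of them were called at a log2 change of 1 and 97.5% at 2, with 0 false calls. Comparisons with flox/flox were not scored, so the result does not cover calls there. Each simulated genotype had the same spread for all genes, and no length trend was simulated. Exon lengths, positions and overlaps came from GENCODE M21, promoters from RefSeq.

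Named were the 10 members, up to 8 genes per pathway list called in any comparison, Trp53 with its targets Cdkn1a and Mdm2, and the 5 genes most like the called member with the smallest adjusted p. The result of 1 called pathway gene is not reported here. The members and lists were chosen with earlier results of these data known, so counts over them are descriptions. Alternatives were 2 other pseudocounts (0.1 and none), 2 filters, 2 scalings, no trend, weights per genotype, fits of 2 genotypes alone, a block on the replicate number, each library left out, and, chosen after seeing the data, a block with exchanged numbers and removal of the length trend. Replicate numbers were read from sample titles, and equal numbers mark different mice.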

Additional observations from a re-analysis of the deposited data

How the results depend on the processing

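The number of libraries limits every call. With each library left out in turn, the members called ranged from 0 to 8 in flox/flox against wild-type, 0 to 6 in R270H/R270H against wild-type and 0 to 8 between the mutant genotypes, and the pathway genes called from 0 to 44, 0 to 33 and 1 to 43, while the share of all genes called ran from 0.0797 to 68.5%, 0 to 57.1% and 1.65 to 72.3%. The high counts came without a flox/flox library, where the remaining one is assumed to vary like the other genotypes. Weights per genotype gave 0, 6 and 1 members and 0, 34 and 1 pathway genes (1.49%, 59.6% and 5.32% of all genes), and fits of 2 genotypes alone gave 0, 6 and 0 members and 0, 33 and 1 pathway genes (0.468%, 57.0% and 3.76% of all genes). flox/flox against wild-type called 1 member with a pseudocount of 0.1 or none (10.7% of all genes). R270H/R270H against wild-type called 1 member, Bmf, with either other filter, median-of-ratios scaling or no trend (12.4 to 15.4% of all genes), and 3 with the length trend removed (17.3%). The cause was not tested.

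Deviations of same-numbered libraries correlated at 0.117 (wild-type and flox/flox), -0.291 (wild-type and R270H/R270H) and -0.196 (flox/flox and R270H/R270H). These values do not show whether any libraries were prepared together, which was not tested. A replicate block called 1, 0 and 2 members (Bak1, and Bak1 with Bmf) and 1, 6 and 7 pathway genes (2.79%, 5.48% and 11.5% of all genes). With the R270H/R270H numbers exchanged, a block chosen after seeing the data called 1, 0 and 5 members (8.69%, 9.37% and 22.7% of all genes).

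A few values near 0 changed sign. Against wild-type, Bad in R270H/R270H ran from -0.16 to 0.14 with libraries left out and was 0.051 with the length trend removed, Xiap was -0.0094 with that trend removed, and Bcl2l1 ran from -0.13 to 0.0043 with libraries left out. Bmf in flox/flox against wild-type ran from -0.80 to 0.0051.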
